A study of Mus musculus with 87 samples.

Results

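Treatment of mouse embryonic stem cells (mESCs) with pladienolide B (PlaB) was accompanied by H3K27ac peaks at 1633 sites away from gene starts. No such peak was called there in untreated cells. These distal gained sites were taken from lists of CUT&RUN peaks, that is, of places where antibody-tethered nuclease released DNA above background. A site was the merged stretch of peaks from the PlaB-treated WT lists, it had to be present in at least 2 of 3 replicate lists, it had to overlap no H3K27ac peak in any of 3 untreated WT lists, and it had to lie more than 3000 bases from every annotated gene start. The 6 WT lists merged into 70545 H3K27ac regions in all. The treated lists alone merged into 50949 regions, of which 30178 were held by at least 2 lists, 2159 of these met no untreated peak, and 526 of those were left out as close to a gene start. The sites were thus chosen on measured H3K27ac peaks in WT cells with and without PlaB, so the H3K27ac difference between those libraries is their definition and not a finding, and no test was made of it. For comparison, 6374 distal sites were lost by the mirrored rule (held by at least 2 untreated lists and met by no treated peak) and 16473 were kept (held by at least 2 lists under both conditions).

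PlaB blocks the splicing factor SF3B1, and long culture in a low dose turns mESCs into totipotent blastomere-like cells, which resemble the cells of the 2-cell embryo. The CUT&RUN libraries came from EB3 mESCs, a feeder-independent line, either WT or *Obox4* KO (a line grown from a single clone that still holds an intact reading frame of *Obox4* outside the deleted cluster), each with and without PlaB and with 3 replicates for each of H3K27ac, H3K4me3 and H3K27me3. OBOX4 and DUX, both homeodomain transcription factors, were mapped through a 3×FLAG tag in mESC lines that carry a doxycycline-inducible *Obox4* transgene (3 lists) or *Dux* transgene (1 list) and were not labelled as treated with PlaB. RNA-seq was made of mESCs under PlaB, either WT or lacking *Obox4*, *Dux* or both (double KO), 3 libraries each, and from the inducible *Obox4* line at 0, 12 and 48 h of doxycycline, 3 libraries each. The KO lines are clones, the double KO was made from the *Obox4* KO line, and no untreated library of these lines was analysed for RNA, so the RNA says how the lines differed under PlaB and not what PlaB did.

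H3K27ac, the acetylation of lysine 27 on histone H3, marks active enhancers and promoters, whereas H3K4me3 marks promoters and H3K27me3 marks chromatin silenced by Polycomb. In the 2-cell embryo, MERVL, an endogenous retrovirus, is transcribed from its long terminal repeat (LTR) MT2_Mm, and this LTR also serves as promoter for many genes of that stage. DUX is the factor best known to bind MT2_Mm and to switch on this programme in mESCs, and OBOX4 belongs to the OBOX family of homeodomain proteins of oocytes and early embryos. L1Md elements are the young LINE-1 retrotransposons of the mouse, with a promoter at their 5′ end.

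Sequences of 300 bases around the centre of 7 sites are printed here, because they show the kinds of sequence at which H3K27ac was gained. They were read from the RefSeq genome of build GRCm38.p6 and run 5′ to 3′ on the strand named, which is that of the repeat at the centre where there is one. Capitals mark GATTNAATC, the core bound by DUX, and GGATTA, the core bound by bicoid-type homeodomains, to which the OBOX proteins are close, each on either strand. The fixed letters of GATTNAATC read the same on both strands, and copies of these words can overlap. The first 2 are MT2_Mm elements, with and without a DUX peak, and were picked after their values were seen; the others are among the sites with the highest H3K27ac, DUX or OBOX4 enrichment.
MT2_Mm near *Gm6503*, chr8:56749776-56750075, plus strand: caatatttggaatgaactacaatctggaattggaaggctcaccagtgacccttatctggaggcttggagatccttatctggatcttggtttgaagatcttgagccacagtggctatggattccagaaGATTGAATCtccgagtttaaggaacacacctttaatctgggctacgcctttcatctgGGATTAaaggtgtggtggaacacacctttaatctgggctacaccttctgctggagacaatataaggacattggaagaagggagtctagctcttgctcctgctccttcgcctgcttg
MT2_Mm in an intron of *Ctnna2*, chr6:77700686-77700985, plus strand: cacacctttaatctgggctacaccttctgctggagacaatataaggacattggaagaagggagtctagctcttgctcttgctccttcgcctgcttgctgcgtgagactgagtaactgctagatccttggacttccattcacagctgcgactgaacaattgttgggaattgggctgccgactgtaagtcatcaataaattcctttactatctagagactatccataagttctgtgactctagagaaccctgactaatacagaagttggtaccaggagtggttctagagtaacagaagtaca
ORR1A2 near *Tlk2*, chr11:105173372-105173671, plus strand: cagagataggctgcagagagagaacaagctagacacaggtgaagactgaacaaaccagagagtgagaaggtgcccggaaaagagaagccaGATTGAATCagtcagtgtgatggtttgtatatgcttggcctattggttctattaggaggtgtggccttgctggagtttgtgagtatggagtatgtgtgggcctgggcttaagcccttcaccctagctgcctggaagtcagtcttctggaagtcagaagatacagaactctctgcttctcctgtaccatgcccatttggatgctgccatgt
L1Md_A in an intron of *Khdrbs2*, chr1:32378429-32378728, minus strand: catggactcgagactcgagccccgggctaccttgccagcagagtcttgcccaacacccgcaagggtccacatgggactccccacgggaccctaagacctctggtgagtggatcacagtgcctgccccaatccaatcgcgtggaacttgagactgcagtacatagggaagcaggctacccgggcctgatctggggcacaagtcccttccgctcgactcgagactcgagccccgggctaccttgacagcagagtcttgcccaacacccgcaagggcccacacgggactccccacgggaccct
unannotated sequence near *Cd24a*, chr10:43562758-43563057, plus strand: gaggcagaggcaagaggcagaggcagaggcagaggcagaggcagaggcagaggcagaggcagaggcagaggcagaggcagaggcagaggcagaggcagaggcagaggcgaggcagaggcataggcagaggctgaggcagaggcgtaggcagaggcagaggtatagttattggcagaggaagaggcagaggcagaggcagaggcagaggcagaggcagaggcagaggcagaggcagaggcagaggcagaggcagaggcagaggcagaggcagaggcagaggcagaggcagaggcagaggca
unannotated sequence in an intron of *Qtrt2*, chr16:43912461-43912760, plus strand: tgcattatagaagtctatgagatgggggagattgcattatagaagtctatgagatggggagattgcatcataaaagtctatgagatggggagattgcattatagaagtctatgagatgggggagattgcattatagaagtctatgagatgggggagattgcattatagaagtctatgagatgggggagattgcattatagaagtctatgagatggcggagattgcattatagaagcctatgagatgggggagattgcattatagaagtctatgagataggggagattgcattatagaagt
PB1 near *Huwe1*, chrX:151792463-151792762, plus strand: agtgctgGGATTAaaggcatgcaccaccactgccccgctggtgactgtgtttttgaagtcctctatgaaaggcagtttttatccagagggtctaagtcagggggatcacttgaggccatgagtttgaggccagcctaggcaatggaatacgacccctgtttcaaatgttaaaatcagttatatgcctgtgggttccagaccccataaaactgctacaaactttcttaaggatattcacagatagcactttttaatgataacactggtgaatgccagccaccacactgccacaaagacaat
The MT2_Mm element with a DUX peak held 1 GATTNAATC and 1 GGATTA, and the window of the other, which was centred further along the element, held neither. The sequences near *Cd24a* and in *Qtrt2* were each built of a short unit repeated many times.

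The 1633 sites were modest peaks, held less evenly by the replicates than sites present under both conditions. Treated replicate 1 held 1042 of them, replicate 2 held 1295 and replicate 3 held 1378. All 3 treated lists held 449 sites (27.5%), against 75.4% of kept sites and 34.2% of lost sites in their own condition. The enrichment, which is the ratio of signal to local background given by the peak caller, averaged over the lists that held a site, had a median of 4.40 and ran from 1.58 to 12.9. Its median was 4.20 at lost sites and 5.88 at kept sites. Sites were 444 bases wide at the median (quartiles 339 and 597), narrower than kept sites (893). They lay 20454 bases from the nearest gene start at the median. At the edge of the rule, the closest site lay 3007 bases from a gene start and the closest region left out 2996, and 71 sites lay within another 1000 bases of the limit. An untreated peak stood within 1000 bases of 386 sites without touching them, and 1402 other distal regions were left out because a single untreated list met them. The count also moved with the lists used. It fell to 1049, 788 and 709 when treated replicate 1, 2 or 3 was left out, and rose to as many as 2422 when 1 untreated list was left out.

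The gained sites lay mostly outside genes, with 962 (58.9%) intergenic, 622 (38.1%) in introns and 49 (3.00%) in exons. Of lost sites, 35.8% were intergenic, and of kept sites 48.6%. Chromosome 6 held the most gained sites, 151, or 1.01 per Mb. Chromosome Y held 46 gained sites, but 0 lost and 28 kept sites. Most gained sites stood alone, in that 1170 had no other within 100000 bases, while 165 pairs and 37 larger groups were found. The largest group was 10 sites over 347 kb of chromosome 6 around *Trim24*, and the next was 8 sites over 134 kb of chromosome 3 at *Tdpoz3* and *Tdpoz4*, genes of the 2-cell stage.

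Most of the sites lay in repeats, and MT2_Mm and L1Md were much more frequent among them than among sites lost with PlaB. The centre lay in an annotated repeat at 1072 sites (65.6%, 95% Wilson interval 63.3 to 67.9), against 36.4% of lost and 49.3% of kept sites. MT2_Mm or MERVL-int, the internal part of MERVL, held 127 centres (7.78%, interval 6.58 to 9.18). The same elements held 0 of 6374 lost centres, which allows a share of up to 0.0602%, and 7 of 16473 kept centres (0.0425%). L1Md elements held 410 centres (25.1%, interval 23.1 to 27.3), against 0.863% of lost and 11.1% of kept centres. LTR elements as a class held 469 gained centres (28.7%), 21% of lost and 26.7% of kept centres, so the class as a whole was spread more evenly than MT2_Mm. By any overlap with the region, which favours wide regions, the order changed, with 39.1% of gained, 34.4% of lost and 45.3% of kept sites touching an LTR. No repeat of the annotation used lay at 561 gained centres (34.4%). That annotation did not name the short repeated units near *Cd24a* and in *Qtrt2* printed above, so this class is not free of repeats. These intervals cover counting error only, and neighbouring sites and copies of 1 repeat are not independent. The bars of sites by repeat class show this make-up for the gained, lost and kept sets side by side.

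**Figure D1:**
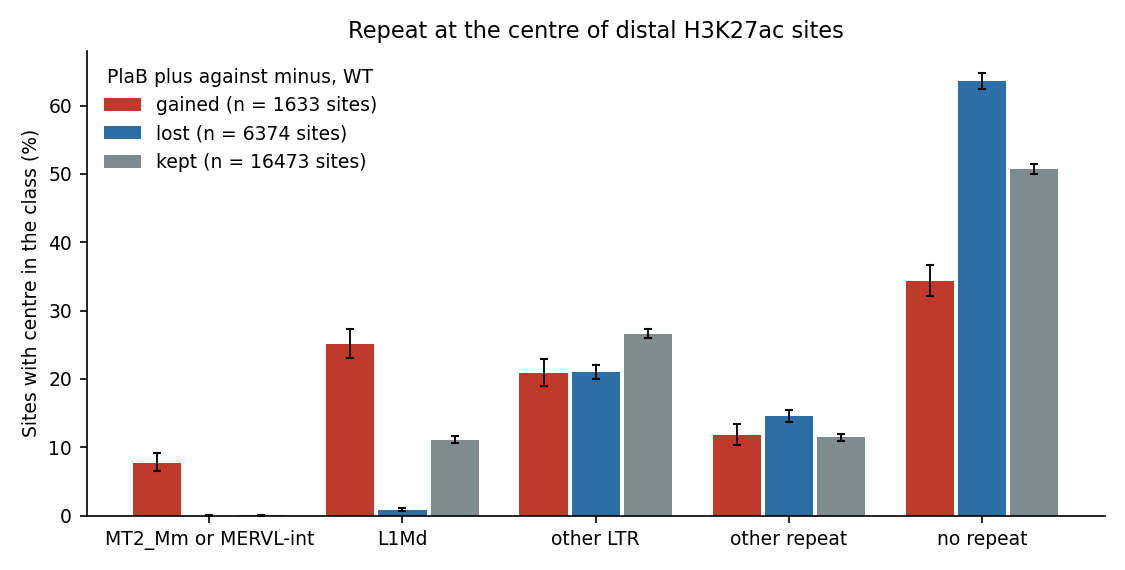
Percent of distal H3K27ac sites (vertical axis) whose centre lies in each class of repeat, for the 1633 gained, 6374 lost and 16473 kept sites, with 95% Wilson intervals as error bars. MT2_Mm or MERVL-int stood at 7.78% of gained sites, 0 of lost sites and 0.0425% of kept sites, and L1Md at 25.1%, 0.863% and 11.1%.

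Most L1Md centres lay in L1Md_A and L1Md_T. L1Md_A held 202 gained centres, against 6 lost and 599 kept, and L1Md_T held 170, against 25 and 1080. The centres sat near the 5′ end of the elements, where the LINE-1 promoter lies. In L1Md_A the median distance from the 5′ end was 284 bases, and 99.0% were within 1000 bases in elements that were mostly of full length (177 of 202 were 5000 bases or longer). In L1Md_T the median was 343.5 bases. The kept L1Md_A sites also sat at the 5′ end, with a median of 421 bases.

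MT2_Mm held 107 gained centres, or 40.5 per 1000 of its 2641 annotated copies. It held 0 lost and 7 kept centres. The median centre lay 229 bases into the element, whose median length was 493 bases. MERVL-int lay beside 76 of the 107 gained copies (71.0%) and beside 56.5% of all copies. MERVL-int itself held 20 gained centres, and 0 lost or kept ones. A higher rate per copy was seen only for ERVB4_2-LTR_MM among names with at least 5 centres, with 7 gained centres in 143 copies (49 per 1000) and 0 lost or kept ones.

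DUX peaks were more frequent at gained sites than at lost or kept sites, whereas OBOX4 peaks were less frequent than at kept sites. A DUX peak touched 147 gained sites (9.002%, interval 7.71 to 10.5), 10 lost sites (0.157%) and 245 kept sites (1.49%). An OBOX4 peak, taken where at least 2 of 3 lists held one, touched 144 gained sites (8.82%, interval 7.54 to 10.3), 11.8% of lost and 40.2% of kept sites. The 3 OBOX4 lists gave 13.1%, 8.33% and 9.31% of gained sites singly. Since kept sites are wider, the overlap was also taken in a fixed window of 300 bases at the centre, an alternative chosen after seeing the data. There DUX met 8.45% of gained, 0.141% of lost and 1.12% of kept sites, and OBOX4 met 8.45%, 10.7% and 35.7%. The order of the sets was the same. The DUX list was a single list of 1802 peaks with no replicate, and both factors were mapped in other lines than the H3K27ac.

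The share of sites with a DUX peak was highest at MT2_Mm or MERVL-int, although most of the 147 gained sites with a DUX peak lay elsewhere. Of 127 sites at MT2_Mm or MERVL-int, 52 (40.9%, interval 32.8 to 49.6) held a DUX peak and 30 (23.6%) an OBOX4 peak. Of 410 L1Md sites, 1 held a DUX peak and 3 (0.732%) an OBOX4 peak. Sites without an annotated repeat stood between, with 50 of 561 (8.91%) for DUX and 57 (10.2%) for OBOX4. Another 25 DUX peaks lay at other LTRs and 19 at other repeats. Both factors met at 27 sites, of which 20 were at MT2_Mm or MERVL-int. At kept sites within LTRs OBOX4 was much more frequent (51.4%) than at gained sites within LTRs (13.4%). The plot of factor peaks by repeat class shows DUX at its highest on MT2_Mm or MERVL-int and both factors near 0 on L1Md.

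**Figure D2:**
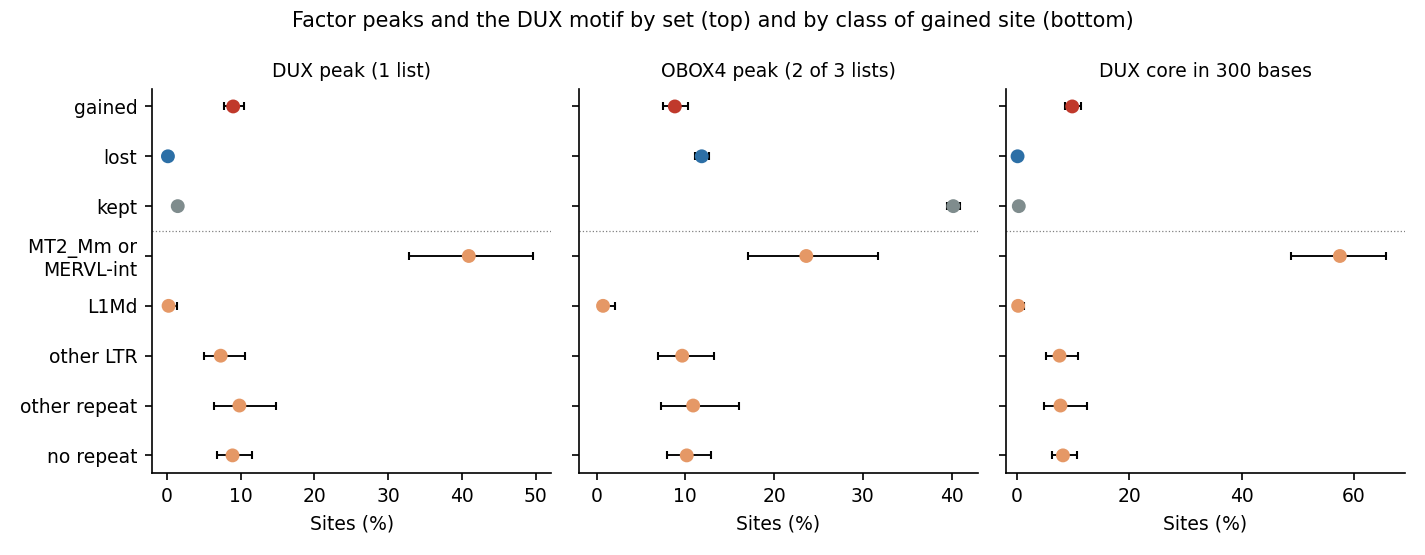
Percent of sites (horizontal axes) that hold a DUX peak, an OBOX4 peak in at least 2 of 3 lists, or the DUX core within the central 300 bases, for the gained, lost and kept sets and for the gained sites split by repeat class, with 95% Wilson intervals as error bars. MT2_Mm or MERVL-int sites held DUX peaks at 40.9% and OBOX4 peaks at 23.6%, and L1Md sites at 0.244% and 0.732%.

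The DUX core GATTNAATC was found, on either strand, in the central 300 bases of 161 of the 1632 gained sites with a full window (9.87%, interval 8.51 to 11.4). It was found in 0.141% of lost windows, 0.358% of kept windows and 0.460% of windows shifted 2000 bases to either side of the gained sites. Of MT2_Mm or MERVL-int sites 57.5% held it, of L1Md sites 0.244%. MT2_Mm sites with and without a DUX peak held it alike, at 68.1% of 47 and 68.3% of 60. The core GGATTA, a shorter and so more common word, was in 14.0% of gained, 10.5% of lost and 9.46% of kept windows and in 12.2% of the shifted ones, and in 31.9% of gained windows with an OBOX4 peak against 12.2% without. Part of both counts is the sequence of MT2_Mm itself, since GGATTA was in 70.2% of the MT2_Mm windows with a DUX peak and 70% of those without. A match is a description of the letters and not of binding.

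Single sites show what these shares consist of. The highest mean enrichment of H3K27ac, 12.9, was at a full-length L1Md_A in an intron of *Khdrbs2* on chromosome 1 (10.2, 15.4 and 13.1 in the 3 lists). It held H3K4me3 in all 3 lists of each WT and KO condition, but no factor peak and no H3K27ac peak in any *Obox4* KO list. It was an exception, since the other L1Md sites among the 10 of highest H3K27ac held it in all 3 treated and all 3 untreated KO lists. The site 15059 bases from *Cd24a*, which encodes a surface glycoprotein, had values of 5.94, 12.2 and 11.3 and OBOX4 peaks in all 3 lists, at 2.47, 4.99 and 4.64. H3K27ac was held there by 2 treated and 0 untreated KO lists.

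The strongest DUX peaks at gained sites lay in an intron of *Qtrt2* on chromosome 16 (enrichment 33.2), in an intron of *Akap9* on chromosome 5 (30.1) and 3023 bases from the pseudogene *Gm21036* on chromosome 7 (25.9). None of these was an MT2_Mm, and none held GATTNAATC in its central 300 bases. The *Akap9* window was, like that in *Qtrt2*, built of a short unit repeated many times. The *Qtrt2* and *Gm21036* sites held H3K27ac in all 3 treated WT lists and in none of the 6 KO lists, whereas the *Akap9* site was held by 2 treated KO lists. The fifth lay 18146 bases from *BC147527*, with a DUX peak of 18.5 and OBOX4 peaks of 4.14 and 3.91 in 2 lists. The strongest OBOX4 peaks, of 53, 44.9 and 40.5, were shared by a pair of neighbouring sites on chromosome X, 1 of them 7360 bases from *Huwe1*, which encodes a ubiquitin ligase. The site near *Huwe1* held H3K27ac in 2 treated and 2 untreated KO lists, and its neighbour in none. Among the 10 sites of highest H3K27ac, the ORR1A2 element 4887 bases from *Tlk2* had OBOX4 peaks of 14.6, 12.9 and 9.78, H3K4me3 in all 3 treated WT lists and in no untreated or KO list, and no H3K27ac in any KO list.

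Each *Obox4* KO list held H3K27ac at a minority of the gained sites, and as often without PlaB as with it within the spread of the lists. Untreated KO lists held 24.8%, 32.6% and 21.9% of the 1633 sites, and treated KO lists held 25.5%, 27.3% and 22.2%. The treated lists were neither all above nor all below the untreated ones. The mean difference, treated minus untreated, was -1.41 percentage points (exact two-sided permutation test over the 3 against 3 lists, p = 0.9, where the smallest possible p is 0.1). In at least 2 of 3 lists, 375 sites (23.0%) held H3K27ac in treated KO cells, 416 (25.5%) in untreated KO cells and 249 (15.2%) in both. None of the 6 KO lists held 816 sites (50.0%), against 15.0% of lost and 1.70% of kept sites. The KO lists were not short, with 47300 to 62836 peaks against 33127 to 52586 in the WT lists, but the number of reads behind each list is unknown. By the same rule applied to the KO lists, 6089 distal sites were gained in KO cells. Of these, 47 overlapped a site gained in WT, which is 0.772% of the former and 2.88% of the latter. How much overlap the rule would leave between repeated sets of lists from 1 line was not tested.

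The state in KO cells differed by the kind of site. Of 127 MT2_Mm or MERVL-int sites, untreated KO lists held 0, 1 and 0 and treated KO lists held 2, 5 and 1, while the treated WT lists that had chosen them held 86, 94 and 108. None of the 6 KO lists held 120 of these 127 sites. Of the 107 MT2_Mm sites, 0 were held by at least 2 treated KO lists. Of 147 sites with a DUX peak, treated KO lists held 4, 5 and 2, and 2 sites (1.36%) were in at least 2 of them, against 25.1% of sites without a DUX peak.

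L1Md sites behaved otherwise. Of 410, untreated KO lists held 124, 197 and 136 and treated ones 127, 182 and 116. The ranges overlapped (exact two-sided permutation p = 0.6). Of 144 sites with an OBOX4 peak, untreated KO lists held 57, 60 and 48 and treated ones 48, 43 and 43, so the lowest untreated list tied with the highest treated one (p = 0.2 by the same exact test). Of the 46 sites on chromosome Y, 28 were held by at least 2 treated and 30 by at least 2 untreated KO lists. The plot of KO lists by kind of site shows that MT2_Mm and DUX-peak sites stood near 0 under both conditions.

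**Figure D3:**
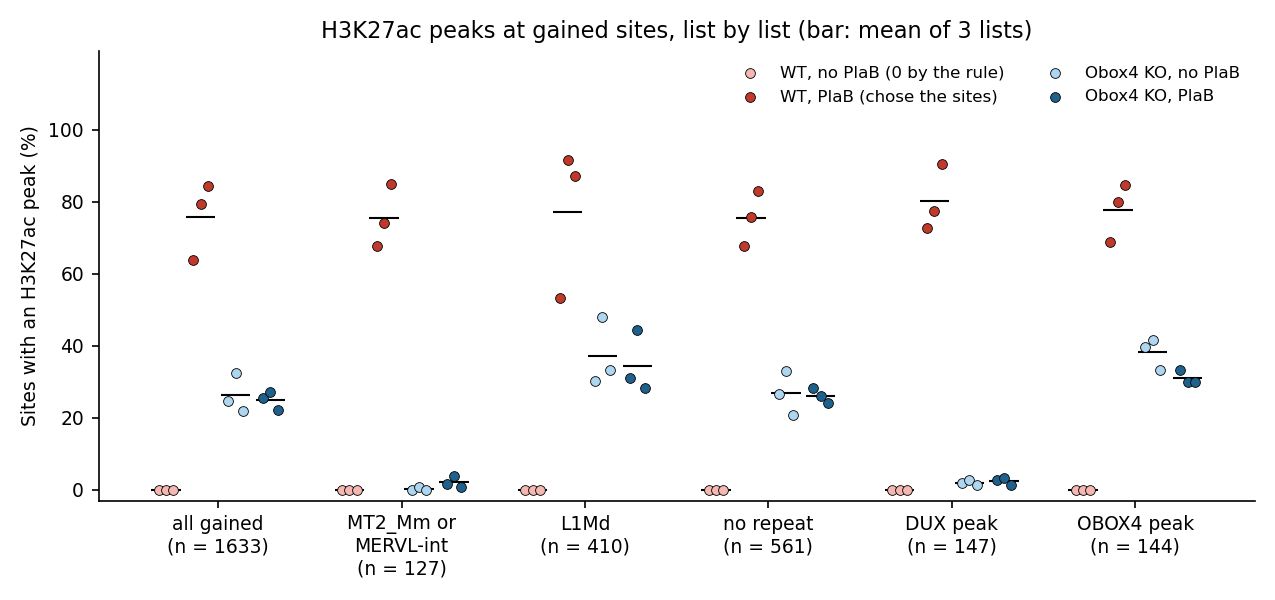
Percent of gained sites of each kind (vertical axis) that hold an H3K27ac peak in each list, with 1 point for each of 3 lists in untreated and treated WT and *Obox4* KO cells and a bar at the mean. The WT points are set by the rule, and the KO points of the MT2_Mm or MERVL-int sites lie at 0 to 5 sites of 127.

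The other marks divided the sites further. H3K4me3 was present at 526, 525 and 522 gained sites in untreated WT lists and at 534, 536 and 513 in treated WT lists. These were mainly L1Md sites, of which 362 of 410 (88.3%) held H3K4me3 in at least 2 untreated WT lists and 388 (94.6%) in at least 2 treated ones. In KO cells L1Md sites held H3K4me3 at 364, 379 and 378 without PlaB and 368, 356 and 376 with it. The MT2_Mm or MERVL-int sites held H3K4me3 at 0, 0 and 0 in untreated WT lists, at 6, 8 and 2 of 127 in treated WT lists, and at 0 in all 6 KO lists. H3K27me3 was found at 7.47% of gained sites in any of the 6 WT lists, but at 44 of the 127 MT2_Mm or MERVL-int sites (34.6%). Over all gained sites, the treated minus untreated difference in KO cells was -1.63 percentage points for H3K4me3 (p = 0.2) and 0.245 for H3K27me3 (p = 0.9), both by the exact two-sided permutation test.

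The RNA libraries had 14283083 to 48837123 counts on genes under PlaB and 22470332 to 31504967 in the induction series. The summed level of 6 mESC markers (*Pou5f1*, *Sox2*, *Nanog*, *Zfp42*, *Esrrb*, *Klf4*) was 3097 to 3182 CPM (counts scaled to library size) in WT. It was 1651 to 2047 in *Obox4* KO, 2547 to 2569 in *Dux* KO and 1335 to 1506 in double KO, so the level differed between lines. None of the 6 was at 0 in any line. The trophectoderm and primitive endoderm markers given below also had none at 0, so this alone does not bear out the label of stem cells. *Obox4* and its annotated copies, 39 rows in all, summed to 17.0, 15.7 and 15.8 CPM in WT and 4.62, 3.61 and 11.7 in *Obox4* KO. They were lower still in *Dux* KO, at 0.132, 0.118 and 0.126 CPM, and in double KO, at 0.19, 0 and 0.181. Reads that fit several copies were discarded by the authors, so these sums leave such reads out. The *Dux* KO libraries were thus lower in RNA of both factors, whereas the *Obox4* KO line, replicate 3 most of all, still held RNA of both. *Dux*, listed as *Duxf3*, was at 4.76 to 5.78 CPM in WT, 2.39 to 5.35 in *Obox4* KO and 0 in the 6 libraries of *Dux* KO and double KO. *Obox4* KO replicate 3 stood apart from the other 2 in many genes named here. Fewer cells in a state and less RNA per cell cannot be told apart in such bulk libraries.

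Among the repeats at which most H3K27ac sites were gained, the RNA of MERVL and its LTR was much lower in each KO line than in WT. The RNA is summed over all copies of a name, whether or not a copy is a gained site. MT2_Mm was at 1793, 1921 and 1802 CPM in WT, 388, 399 and 588 in *Obox4* KO, 94.7, 96.7 and 95.5 in *Dux* KO and 68.8, 75.8 and 96.5 in double KO. Every KO library was below every WT library. The log2 fold change against WT was -2.0 ± 0.17 (SE) in *Obox4* KO (adjusted p = 1.9e-05), -4.28 ± 0.19 in *Dux* KO (1.31e-08) and -4.49 ± 0.19 in double KO (7.78e-09), by edgeR's quasi-likelihood test with Benjamini-Hochberg adjustment over 1056 repeat names. These 3 comparisons share the WT libraries. MERVL-int fell by 2.24, 5.45 and 6.64 on the log2 scale in the same lines.

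Upon induction of *Obox4*, MT2_Mm was at 129, 143 and 125 CPM at 0 h and 298, 316 and 307 at 48 h, with a log2 fold change of 1.21 ± 0.12 (adjusted p = 0.000546). MERVL-int rose by 1.65 ± 0.11 (1.57e-05). In the fit with the replicate number as a block, MT2_Mm had the same fold change but an adjusted p of 0.0104, above the threshold of 0.01.

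L1Md RNA moved less. L1Md_A was at 4959, 5116 and 4674 CPM in WT and 2949, 2950 and 4423 in *Obox4* KO, a log2 fold change of -0.51 ± 0.17 that was not called (adjusted p = 0.0643). L1Md_T had -0.48 ± 0.14 in *Obox4* KO (0.0315) and -0.59 ± 0.14 in *Dux* KO (0.00922), the latter under the size limit of 1. These values have to be read against the median of all repeat names, which was -0.35 in *Obox4* KO, -0.29 in *Dux* KO and -0.92 in double KO. The plot of RNA by library shows MT2_Mm and MERVL-int apart from L1Md.

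**Figure D4:**
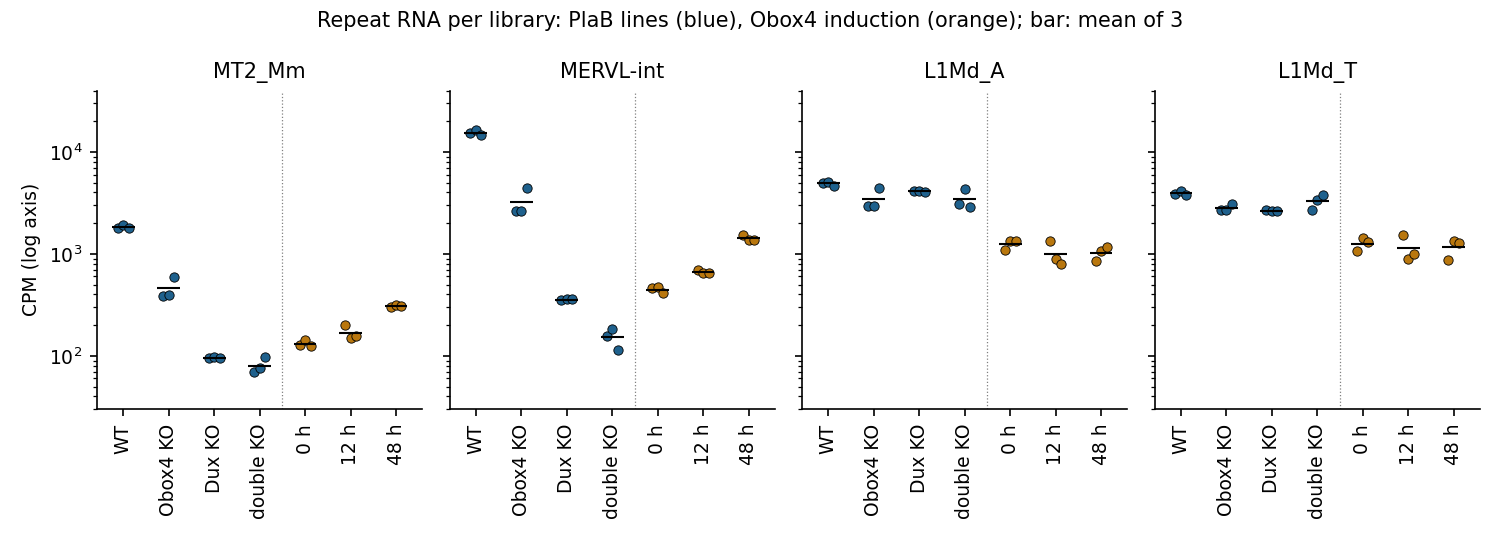
RNA level (vertical axis, CPM on a log scale) of MT2_Mm, MERVL-int, L1Md_A and L1Md_T, with 1 point for each of 3 libraries and a bar at the mean, in the PlaB-treated lines (blue) and at 0, 12 and 48 h of *Obox4* induction (orange). MERVL-int stood at 14516 to 16417 CPM in WT and at 113 to 184 in double KO.

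Of the 34 repeat names with at least 5 gained centres, all passed the filter on low counts. In *Obox4* KO 4 were called, all lower, namely MT2_Mm, MERVL-int, MMERVK9C_I-int and MMERVK9E_I-int. Of all 1056 repeat names tested, 2.75% were called lower and 0.0% higher by edgeR's quasi-likelihood test, where 361 had an unadjusted p under 0.05 and DESeq2 also called 0 higher. In *Dux* KO 4 were called lower, MT2_Mm, MERVL-int, ORR1A0-int and ERVB4_2-LTR_MM, where 6.34% of all names were called lower and 0.0% higher (327 with an unadjusted p under 0.05, and 0 higher by DESeq2). In double KO 13 were called lower, which is a share near the background of 37.5% lower and 0.0947% higher. Upon induction 2 were called higher, MT2_Mm and MERVL-int, and 1 lower, ETnERV3-int, where 0.297% of 1009 names were called higher and 0.0991% lower. Scaling over repeats alone, an alternative chosen after seeing the data, left 2 called names in *Obox4* KO and 2 in *Dux* KO. In double KO 4 were then called, of which 3 were lower and among the 13, and 1 was called higher. MMERVK9C_I-int and MMERVK9E_I-int were not called in *Obox4* KO with this scaling.

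MMERVK9C_I-int, the internal part of another endogenous retrovirus, was at 304, 314 and 315 CPM in WT, 117, 124 and 146 in *Obox4* KO, 250, 244 and 248 in *Dux* KO and 90.8, 116 and 72.5 in double KO. It fell by 1.27 ± 0.14 in *Obox4* KO (adjusted p = 7.98e-05), whereas in *Dux* KO its fold change was -0.35 ± 0.14 and was not called. ERVB4_2-LTR_MM was at 48.4, 48.1 and 49.5 CPM in WT and at 9.18, 8.62 and 9.04 in *Dux* KO, and fell by 2.46 ± 0.49 there (adjusted p = 0.00365), a call lost without any 1 of the 6 libraries compared and with scaling over repeats alone. It was at 10.3, 9.74 and 19.5 CPM in *Obox4* KO, where it was not called (adjusted p = 0.0193). Whether these lines differ from each other was not tested.

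The sites were nearest to 1463 genes, of which 145 were nearest to at least 2 sites and 625 passed the filter on low counts in the PlaB libraries. More of these 625 were called lower than higher in each KO line. In *Obox4* KO 53 were lower (8.48%) and 19 higher (3.04%), where 3.96% of all 22328 genes tested were lower and 4.92% higher. In *Dux* KO 72 were lower (11.5%) and 10 higher (1.60%), against 4.7% and 1.62% of all genes. In double KO 115 were lower (18.4%) and 41 higher (6.56%), against 8.79% and 9.25%. The median log2 fold change of the nearest genes was -0.18, -0.12 and -0.38 in the 3 lines and that of all genes 0.02, 0.00 and -0.06. Genes nearest to lost sites were called lower at 4.63%, 2.99% and 8.34% and higher at 3.63%, 1.53% and 7.73%. Those nearest to kept sites were called lower at 5.60%, 4.45% and 11% and higher at 3.75%, 1.55% and 7.8%. An excess of lower over higher calls was thus also seen next to lost and kept sites. The same WT libraries enter all 3 comparisons, and genes that are low in KO and in WT alike were not tested, so the counts hold for the tested genes only.

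The count in *Obox4* KO depended on single libraries, and the calls over all genes moved with it. Without *Obox4* KO replicate 3 the count was 112 (84 lower and 28 higher), without *Obox4* KO replicate 2 it was 45, and without WT replicate 1, 2 or 3 it was 41, 46 and 45, with more lower than higher each time. Over all genes, 885 were called lower and 1098 higher with every library, and 1623 and 1561 without *Obox4* KO replicate 3. Without WT replicate 1 they were 550 and 697.

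Genes near the MT2_Mm or MERVL-int sites were called lower at the highest share in this comparison of kinds. Of 59 tested, 10 (16.9%), 19 (32.2%) and 24 (40.7%) were called lower in *Obox4* KO, *Dux* KO and double KO. Of the same 59, 1, 0 and 2 were called higher. Of all genes tested, 3.96%, 4.7% and 8.79% were called lower in these lines and 4.92%, 1.62% and 9.25% higher. Of 71 genes tested next to sites with a DUX peak, 11, 21 and 27 were lower (15.5%, 29.6% and 38.0%) and 2, 0 and 3 higher. Of 57 next to sites with an OBOX4 peak, 6, 7 and 10 were lower (10.5%, 12.3% and 17.5%) and 3, 1 and 2 higher. The 3 and 1 higher in *Obox4* KO and *Dux* KO (5.26% and 1.75%) are near the share of all genes. Of 76 next to L1Md sites, 10, 11 and 15 were lower (13.2%, 14.5% and 19.7%) and 1, 1 and 2 higher. Upon induction of *Obox4*, 31 of 502 nearest genes tested were called higher (6.18%) and 4 lower (0.797%), against 3.37% and 0.574% of all 18625 genes. The 35 calls became 23, 19 and 17 without 0 h replicate 1, 2 or 3, 20 and 23 without 48 h replicate 2 or 3, and 17 with the replicate number as a block. With the block, calls over all genes also fell, from 628 to 310 higher and from 107 to 63 lower. Genes called higher upon induction were 2 of 41 next to MT2_Mm or MERVL-int sites (4.88%), 2 of 52 next to sites with an OBOX4 peak (3.85%), 7 of 56 next to sites with a DUX peak (12.5%) and 6 of 59 next to L1Md sites (10.2%). The plot of called genes by set places these shares beside those of all genes.

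**Figure D5:**
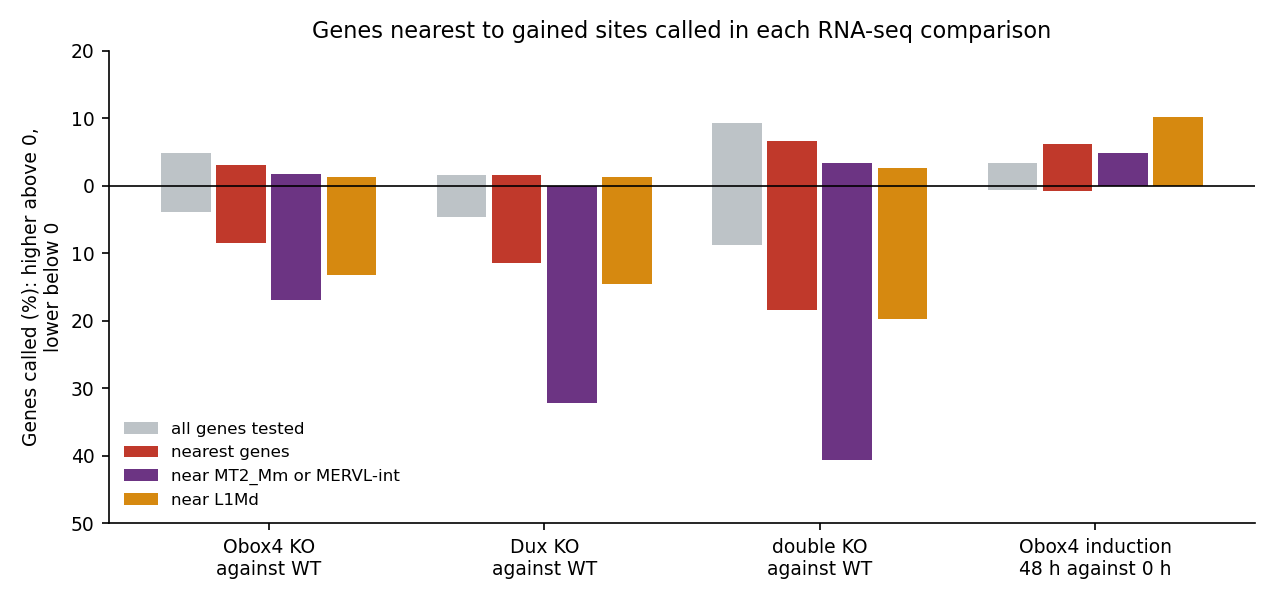
Percent of tested genes called lower or higher (vertical axis, higher above 0 and lower below 0) in each RNA comparison, for all genes tested, the genes nearest to gained sites, and those nearest to MT2_Mm or MERVL-int sites and to L1Md sites. In double KO 40.7% of the genes next to MT2_Mm or MERVL-int sites were called lower, against 8.79% of all genes.

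Among the nearest genes were 7 of 55 annotated members of a list of 2-cell stage genes, and each was called lower in both *Dux* KO and double KO. Of these, 5 were also called lower in *Obox4* KO and 6 were called higher upon induction of *Obox4*. The list as a whole moved likewise. Of 52 members tested, 22, 44 and 41 were called lower in *Obox4* KO, *Dux* KO and double KO, and 33 of 48 were called higher upon induction, so the 7 are not particular to the sites. Of all genes tested, 3.96%, 4.7% and 8.79% were called lower in these lines and 3.37% higher upon induction. Most belong to families of near-identical copies, and reads that fit several copies were discarded by the authors, so how reads are split among copies is uncertain.

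*Tdpoz4*, a gene of the TD and POZ domain family, was nearest to 4 gained sites, the closest at 5580 bases, and 1 or more of these held a DUX peak. Its level was 50.3, 55.6 and 51.4 CPM in WT, 2.74, 1.64 and 7.13 in *Obox4* KO, 0.0439, 0.0788 and 0 in *Dux* KO and 0.127, 0 and 0 in double KO. It fell by 3.76 ± 0.49 (log2, SE) in *Obox4* KO (adjusted p = 0.000177) and rose by 2.75 ± 0.34 upon induction (0.000479). Its neighbour *Tdpoz3* fell by 2.57 ± 0.58 in *Obox4* KO (0.0062), a call that was lost by DESeq2 and without any 1 library other than *Obox4* KO replicate 3. *BC147527*, beside the fifth strongest DUX peak, was at 32.3, 34.2 and 30.3 CPM in WT, 1.42, 1.17 and 5.02 in *Obox4* KO, 0, 0.0788 and 0 in *Dux* KO and 0 in all double KO libraries. It fell by 3.65 ± 0.54 in *Obox4* KO (0.000759) and was at least 913-fold lower in double KO, taking 3 counts over the group as the floor.

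The ubiquitin protease genes *Usp17la*, *Usp17lb* and *Usp17lc* lay 5536, 8942 and 11715 bases from a gained site. *Usp17lc* was at 98.8, 107 and 100.4 CPM in WT, 14.6, 17.4 and 28.0 in *Obox4* KO, 0.0659, 0.0788 and 0.0419 in *Dux* KO and 0.127, 0.103 and 0 in double KO. It fell by 2.32 ± 0.22 in *Obox4* KO (adjusted p = 2.77e-05) and rose by 2.34 ± 0.21 upon induction (9.43e-05), from 1.60, 0.949 and 1.11 to 6.35, 6.24 and 5.59 CPM. *Usp17lb*, next to an L1Md site, fell by 1.88 ± 0.31 in *Obox4* KO (0.00152) and was at least 3373-fold lower in double KO. *Usp17la* fell by 1.07 ± 0.22 in *Obox4* KO (0.00332), close to the limit of 1, and this call was lost without any 1 library other than *Obox4* KO replicate 3.

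*Pramef25*, nearest to 3 gained sites, was at 30.8, 30.6 and 29.3 CPM in WT, 14.7, 13.9 and 38.6 in *Obox4* KO and 0 in all *Dux* KO libraries. The fold change in *Obox4* KO was -0.40 ± 0.47 and was not called (adjusted p = 0.575), with replicate 3 above WT and the others below, whereas in *Dux* KO the gene was at least 1362-fold lower. *Tcstv3* was at 28.0, 28.6 and 29.0 CPM in WT and 1.34, 1.72 and 8.35 in *Obox4* KO, with a fold change of -2.89 ± 0.62 that just missed the threshold (0.010008), and it was at least 1287-fold lower in *Dux* KO.

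Outside that list, *Stox1*, which encodes a winged-helix transcription factor, lay 7395 bases from an MT2_Mm or MERVL-int site with peaks of both factors. It was at 39.9, 41.0 and 40.9 CPM in WT, 3.22, 4.0 and 11 in *Obox4* KO, 2.96, 2.58 and 2.47 in *Dux* KO and 4.88, 4.02 and 4.88 in double KO. All KO libraries were below all WT libraries, and the gene fell by 2.72 ± 0.36, 3.94 ± 0.38 and 3.13 ± 0.37 in the 3 lines (adjusted p = 0.000204, 1.2e-05 and 3.41e-05). Upon induction its fold change was 1.06 ± 0.24 and was not called (0.0144). *Huwe1*, beside the strongest OBOX4 peak, was at 1277, 1278 and 1234.4 CPM in WT, 423, 408 and 626 in *Obox4* KO, 722, 718 and 702 in *Dux* KO and 564, 633 and 434 in double KO. It fell by 1.35 ± 0.17 in *Obox4* KO (0.000126) and 1.20 ± 0.17 in double KO (0.00011), and its *Dux* KO value of -0.84 ± 0.16 was under the limit of 1. *Cd24a* was called lower in double KO only (-1.08 ± 0.21, adjusted p = 0.00134), a call lost without double KO replicate 3. *Tlk2* and *Qtrt2* were not called in any comparison.

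The pluripotency list had 3 of 27 members among the 1463 genes nearest to gained sites, 12 among the 4802 nearest to lost sites and 15 among the 9046 nearest to kept sites. *Nr0b1*, which encodes the nuclear receptor DAX1 and lies 32109 bases from an L1Md site, was at 68, 57.6 and 62.8 CPM in WT, 12.5, 11.5 and 29.9 in *Obox4* KO, 20.5, 22.1 and 21.6 in *Dux* KO and 13.1, 15.7 and 24.1 in double KO. It fell by 1.78 ± 0.32, 1.57 ± 0.32 and 1.83 ± 0.33 in the 3 lines, and the *Dux* KO call was lost without any 1 of the 6 libraries compared. *Esrrb* fell by 1.06 ± 0.14 in double KO and *Zfp42* was not called in any line. Over the whole list of 27 tested, 5, 3 and 9 members were called lower and 0, 0 and 1 higher in *Obox4* KO, *Dux* KO and double KO, where 3.96%, 4.7% and 8.79% of all genes were lower and 4.92%, 1.62% and 9.25% higher, and upon induction 2 of 26 were called higher and 2 lower.

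The nearest genes that rose in the KO lines were led by genes of the trophectoderm, the outer layer of the blastocyst. *Gata2*, a trophoblast transcription factor whose start lies 9592 bases from a gained site, was at 20.4, 19.2 and 18.9 CPM in WT, 163, 169 and 795 in *Obox4* KO, 160, 163 and 164 in *Dux* KO and 786, 818 and 963 in double KO. Every KO library was above every WT library. *Gata2* rose by 4.30 ± 0.52, 3.04 ± 0.50 and 5.48 ± 0.55 (adjusted p = 0.00012, 0.000964 and 9.13e-06) and fell by 1.88 ± 0.19 upon induction (0.000139). *Krt8*, a keratin gene 8940 bases from a site with an OBOX4 peak, was at 53.5, 52.4 and 54.3 CPM in WT, 307, 309 and 732 in *Obox4* KO, 183, 179 and 186 in *Dux* KO and 1660, 1285 and 1325 in double KO. It rose by 3.10 ± 0.29, 1.76 ± 0.28 and 4.76 ± 0.31, and also rose by 1.22 ± 0.14 upon induction. Its partner *Krt18* rose by 3.48 ± 0.57 in *Obox4* KO and 5.59 ± 0.63 in double KO, though DESeq2 made neither call.

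Of the whole trophectoderm list, 18 members were tested, of which 10, 3 and 14 were called in *Obox4* KO, *Dux* KO and double KO, all higher, where 4.92%, 1.62% and 9.25% of all genes were called higher. Upon induction 3 of 13 were higher and 3 lower, where 3.37% of all genes were higher and 0.574% lower. The 4 trophectoderm markers *Cdx2*, *Eomes*, *Elf5* and *Gata3* summed to 51 to 56.7 CPM in WT, 66.2 to 180.0 in *Obox4* KO, 66.9 to 71.7 in *Dux* KO and 235 to 283 in double KO. The 4 primitive endoderm markers summed to 21.7 to 22.6 CPM in WT, 50.8 to 67 in *Obox4* KO, 26.1 to 28.4 in *Dux* KO and 97.5 to 189 in double KO, with none at 0. Markers of fibroblasts, the usual feeder cells, summed to at most 33.5 CPM in every line, with 1 of 7 genes at 0 in WT. The part of such cells in the values of *Gata2*, *Krt8* and *Krt18* was not tested.

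Other risers near gained sites were single genes. *Hmox1*, the haem oxygenase of the stress response, was at 87.5, 89.8 and 84.3 CPM in WT, 262, 271 and 315 in *Obox4* KO, 214, 213 and 214 in *Dux* KO and 428, 325 and 203 in double KO, and rose by 1.72 ± 0.20, 1.28 ± 0.19 and 1.89 ± 0.20. *Gab2*, an adaptor of receptor signalling 38725 bases from an MT2_Mm or MERVL-int site with peaks of both factors, was at 3.19, 2.91 and 1.82 CPM in WT, 6.47, 7.12 and 34.1 in *Obox4* KO and 30.3, 38.6 and 32.6 in double KO. It rose by 2.62 ± 0.53 in *Obox4* KO, a call lost without any 1 WT library and in the fit with a replicate block, and by 3.7 ± 0.55 in double KO. *Tdrd1*, a germ line gene next to a site with a DUX peak, rose by 1.56 ± 0.17 in *Obox4* KO and 2.19 ± 0.18 in double KO. *Gab2* was an exception among the genes next to MT2_Mm or MERVL-int sites, of which 1, 0 and 2 were called higher in *Obox4* KO, *Dux* KO and double KO.

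The remaining lists had few members or none next to a gained site. The germ line list had *Asz1* and *Tdrd1*, the stress list had *Hmox1*, and the primitive endoderm, p53 target, splicing factor and fibroblast lists had none. The counts that follow are for *Obox4* KO, *Dux* KO and double KO in turn, where 4.92%, 1.62% and 9.25% of all genes tested were called higher and 3.96%, 4.7% and 8.79% lower. Of 22 stress genes tested, 10, 2 and 6 were higher and 0, 1 and 0 lower. Of 18 primitive endoderm genes tested, 5, 0 and 10 were higher and 2, 1 and 0 lower. Of 20 germ line genes tested, 3, 0 and 3 were higher and 0, 0 and 1 lower. Of 20 p53 targets tested, 1, 0 and 2 were higher and 0, 1 and 1 lower, which is near the share of all genes.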

How the data were processed

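CUT&RUN and RNA-seq files of mESCs were analysed as deposited. Per the study's methods, the authors aligned CUT&RUN reads with Bowtie2 2.4.1 to GRCm38.p6 and called peaks in each replicate with MACS3 3.0.0a6. The deposited peak lists give the fold enrichment as a ratio, −log10 p and q values and a score, and name the H3K27ac peaks H3Ac. The numbers of reads behind them are unknown, and how reads at repeats were placed can change which copies hold a peak. RNA reads were trimmed with fastp 0.23.2, aligned with STAR 2.7.9a and counted with featureCounts 2.0.1. The deposited gene values are raw counts, for which the authors discarded multi-mapping reads, and the repeat values are expected counts, since the authors split such reads into fractions, and were rounded here.

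Peaks were merged and sites chosen as described in the report. The members and gene lists were chosen with earlier results of these data known. Repeat loci (3718694) came from the deposited repeat table, with the class taken from the repeat name, and gene starts (55364 genes) from the GENCODE annotation of GRCm38. RNA was tested with edgeR 4.0.16 (quasi-likelihood, TMM factors, filter on low counts, R 4.3.3) over all genes or all repeat names, with Benjamini-Hochberg adjustment. A call needed an adjusted p of at most 0.01 and a log2 fold change of at least 1 in size. PlaB lines entered 1 fit and the induction series another. CPM are counts scaled to the size of the library. Lists were compared with exact permutation tests over every split of the lists. Shares carry 95% Wilson intervals from scipy 1.17.1, which cover counting error only. Steps were tested on simulated data. DESeq2 1.42.0, RLE factors, no filter, a replicate block and each library left out were tried as alternatives. Nothing in the labels says that replicates are separate cultures, so p-values measure only the spread between these samples. Named sites were the 10 of highest H3K27ac and 8 each of highest DUX and OBOX4 enrichment. Named genes were those nearest to them, in each comparison up to 6 called genes that rose most and 6 that fell most (mean count of 20 or more, no clone names), and list members nearest to a site. The report describes only some of the sites and genes that this rule names, and one of the sites is not reported here.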

Additional observations from a re-analysis of the deposited data

Results flagged for a closer look

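The peak lists hold an extra sequence named MuERVL, which is not a chromosome name and which no comparison of the report used. How it came to be in the lists is not given in the sources used here. On it, H3K27ac peaks numbered 3, 4 and 2 in the treated WT lists, with the highest enrichment at 6.85, 7.93 and 4.73. There were 0 in the 3 untreated WT lists and in all 6 *Obox4* KO lists, which flagged the result as a signal above the controls in data not otherwise analysed. H3K4me3 peaks on the same sequence numbered 1, 2 and 1 in treated WT lists and 0 in the other lists of that mark. H3K27me3 peaks numbered 2, 3 and 2 in untreated WT, 1, 2 and 2 in treated WT, 0, 2 and 1 in untreated KO and 2, 2 and 1 in treated KO lists. OBOX4 had 1 peak in each of 2 lists, at 3.27 and 4.83, and 0 in the third list, and the single DUX list had 0. It stands for a repeat with many genomic copies, so it does not say which copies gave the reads.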

How the results depend on the processing

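The number of sites depended on the rule, and the DUX, OBOX4 and LTR shares also moved with it. The shares of MT2_Mm or MERVL-int and of L1Md were not recomputed under the alternatives. Of 1633 sites, 449 were held by all 3 treated lists and 301 had peaks with a −log10 q of 5 or more, and leaving out 1 list gave 709 to 2422. The DUX share of 9.002% became 13.4% and 12% under those rules and 11.1% with no untreated peak within 1000 bases (6.56% to 12.1% with 1 list left out). The OBOX4 share of 8.82% became 10.7% and 11%, then 15.9% with a peak in any OBOX4 list, 6.06% in all 3 and 4.10% with a −log10 q of 10 or more (8.67% to 9.64% with 1 list left out). The LTR share of 28.7% became 25.6% with the stricter q value and 39.1% by any overlap (24.5% to 30.5% with 1 list left out). In KO cells, the treated minus untreated difference changed sign without 1 list for H3K27ac (-3.68 to 1.67, with 0.0102 without treated replicate 3 and 1.67 without untreated replicate 2) and for H3K27me3 (-0.592 to 0.694, with -0.0816, -0.0470, -0.138 and -0.592), and for H3K4me3 when lists were reduced to the shortest (0.347; -2.44 to -1.05 with 1 list left out). Called nearest genes in *Obox4* KO numbered 72, or 41 to 112 with 1 library left out, and upon induction 35, or 17 to 24. Calls over all genes moved in the same direction each time. Under PlaB the replicate numbers did not pair the samples (correlations of same-numbered samples from -0.00730 to 0.0815). Upon induction all same-numbered correlations were positive, from 0.0638 to 0.380. Those of differently numbered induction samples ran from -0.346 to 0.224 over genes. These ranges overlap, so whether the numbers pair the induction samples cannot be decided from them. With the replicate number as a block, 66, 77, 148 and 17 nearest genes were called in *Obox4* KO, *Dux* KO, double KO and upon induction, in place of 72, 82, 156 and 35. With scaling over repeats alone, chosen after seeing the data, called repeat names numbered 2, 2 and 4 in the 3 KO lines in place of 4, 4 and 13 (all lower, except that 1 of the 4 was called higher and was not among the 13), MT2_Mm and MERVL-int among them each time. No named gene called in the main fit reversed in the alternatives run, and named genes that were not called were not checked for this. The cause of these changes was not tested. Read depth behind the peak lists is unknown, so a missing peak may be a peak below detection.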
